A study of Mus musculus with 9 samples.

Results

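The replication-dependent histone genes are the 68 rows of the deposited expression table whose symbol starts with Hist1h, Hist2h, Hist3h or Hist4h, out of 25965 rows. They were chosen by name alone. Of the 68 genes, 67 had a read in at least 1 library, and Hist1h2aa, a testis-type H2A gene, had none in any. The filter on low values, log2 RPM of 0 or more in 3 or more libraries (RPM is reads per 1e+06 reads of the library), kept 14044 rows of the table and 12 of the 68 genes, so most of the family lay below it.

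RNA was sequenced from 9 libraries of C57BL/6 neural stem cells derived from E14.5 embryos with floxed Smchd1 alleles. The groups were 3 female Smchd1 del/del (lines 1 to 3), 1 male Smchd1 del/del (line 5), 3 female Smchd1 fl/fl (lines 1 to 3) and 2 male Smchd1 fl/fl (lines 5 and 7) libraries. Each line had been divided: the del/del part received the retrovirus MSCV-Cre-puro, was put under puromycin from 24 h and was harvested on day 7, and the fl/fl part stayed untransduced. Retrovirus, puromycin and loss of Smchd1 therefore cannot be told apart, and the male del/del group is 1 library. Groups follow the sample labels, which differ from the series' design text, where every line is female and a control is del/fl. Smchd1, an SMC-family protein of silent chromatin, had log2 levels of 5.04 to 5.36 in del/del libraries and 6.16 to 6.81 in fl/fl libraries, a log2 fold change of -1.19 (SE 0.15, adjusted p = 0.00751 by limma).

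Replication-dependent histone genes make the H1 linker and the H2A, H2B, H3 and H4 core histones that package newly copied DNA. They are transcribed mostly in S phase from clusters, under the activator NPAT. Their mRNAs usually end in a stem-loop bound by SLBP (stem-loop binding protein) instead of a poly(A) tail, although several members also make polyadenylated mRNA in cells that are differentiating. Whether the libraries were selected for poly(A) or depleted of ribosomal RNA is not stated in the labels, so levels are those of whichever histone transcripts the protocol captured.

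The members lay in 4 clusters of the mouse build GRCm38 (mm10). The Hist1 cluster held 55 on chromosome 13, of which 54 lay in chr13:21715763-23934851 and 1, Hist1h2al, which GENCODE annotates as a processed pseudogene, lay apart at chr13:51202688-51203065. The Hist2 cluster held 10 at chr3:96219865-96279001, the Hist3 cluster held 2 at chr11:58948911-58956674, and the Hist4 cluster was Hist4h4 alone at chr6:136801553-136804431. By type there were 6 H1, 19 H2A, 18 H2B, 12 H3 and 13 H4 genes. GENCODE gave 63 of the 68 transcripts of 1 exon only, and the span of a row ranged from 312 to 37383 bases with a median of 532.5. Whether reads were counted over whole spans or over exons was not given. The 8 members that overlap another listed row may share reads with it: Hist2h2ab, Hist2h2aa2, Hist2h2aa1, Hist2h3c1, Hist2h3b, Hist2h2bb, Hist3h2a (with Trim17) and Hist1h4b.

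The stem-loop that marks this family was searched for in the GENCODE transcripts, as a perfect 6-base stem that begins with GG around a 4-base loop with T at its places 1 and 3, within 150 bases of the stop codon. It was found in 46 of the 52 members whose coding transcript ran at least 16 bases past the stop codon. The annotated transcripts of 15 others ended earlier, and 1 had no coding transcript. Among 51547 other coding transcripts 17 held such a structure, 1 of them of H2afx, the H2A.X gene, whose mRNA is known to take either 3′ end. The 46 members shared 8 stem-loops, and the most common occurred in 26. The transcripts of Hist2h2be, Hist1h2bc and Hist1h1a, of the near-identical Hist1h2bq and Hist1h2br, and of Hist2h3b ran that far but held no match in that window. Those of Hist2h3b and Hist1h1a ended 37 and 48 bases after the stop codon. Stem-loops of other members began as far as base 59, so 1 beyond these ends would be missed. The sequences below, printed as DNA in lower case with the stem-loop in capitals, come from the member of each type with the highest level per kb of row span and from an H3 gene with another loop.
Hist1h1c: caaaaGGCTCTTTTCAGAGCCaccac
Hist3h2a: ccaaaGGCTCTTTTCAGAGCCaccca
Hist3h2ba: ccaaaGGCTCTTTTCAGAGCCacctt
Hist2h3c1: acaaaGGCTCTTTTCAGAGCCaccac
Hist1h4i: ttaaaGGCCCTTTTTAGGGCCaccac
Hist1h3g: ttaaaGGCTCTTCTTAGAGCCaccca

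Members of 1 type are also alike in their coding sequence, which matters for assigning reads to them. Of 331 pairs of 1 type and equal coding length, 4 had identical coding bases, namely Hist1h2ao with Hist1h2ap, Hist1h2bq with Hist1h2br, Hist1h4m with Hist1h4n and Hist2h2aa1 with Hist2h2aa2, and 27 more differed by 1 to 5 bases. The median identity over such pairs was 96.4% for H2A, 95.7% for H2B, 97.6% for H3 and 93.9% for H4. The first 120 coding bases of 5 H2A genes show the range, with capitals at each base that differs from Hist1h2ap.
Hist1h2ao: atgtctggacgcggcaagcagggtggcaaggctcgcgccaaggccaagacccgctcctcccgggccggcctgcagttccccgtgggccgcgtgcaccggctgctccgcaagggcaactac
Hist1h2ap: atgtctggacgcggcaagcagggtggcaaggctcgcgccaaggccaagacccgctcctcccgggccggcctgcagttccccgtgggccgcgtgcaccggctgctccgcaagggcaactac
Hist1h2ae: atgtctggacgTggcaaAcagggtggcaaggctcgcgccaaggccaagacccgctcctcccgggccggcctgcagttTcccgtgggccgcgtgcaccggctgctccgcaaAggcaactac
Hist2h2aa1: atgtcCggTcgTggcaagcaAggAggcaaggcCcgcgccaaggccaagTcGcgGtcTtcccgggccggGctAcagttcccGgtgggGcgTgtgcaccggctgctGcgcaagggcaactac
Hist3h2a: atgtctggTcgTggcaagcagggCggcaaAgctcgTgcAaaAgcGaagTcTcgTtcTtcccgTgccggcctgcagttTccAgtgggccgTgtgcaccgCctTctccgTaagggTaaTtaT
Hist1h2ao (chr13:21810465-21810944, plus strand) and Hist1h2ap (chr13:21833057-21833575, minus strand) were identical over all 393 coding bases. From Hist1h2ap, Hist1h2ae differed at 6 coding bases, Hist2h2aa1 at 34 and Hist3h2a at 45.

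For each gene the share of its 50-base transcript words that occur at another place of the transcriptome was computed, and 31 of the 68 members with a share of at least 50% are called near-identical copies. They were 13 of 19 H2A, 7 of 18 H2B, 7 of 12 H3, 4 of 13 H4 and 0 of 6 H1 genes. Of the 31, 2 passed the filter on low values, Hist2h2aa1 and Hist2h2aa2.

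In the promoter windows of RefSeq (GRCm38.p6, 250 bases before to 50 after the start), found for 62 members in 63 windows, CCAAT on either strand occurred in 85.7% of member windows and in 37.3% of 32788 other windows. All 51 windows of H1, H2A, H2B and H3 genes held it, and 3 of the 12 H4 windows did. TATAAA, searched on both strands as all 3 motifs were, occurred in 55.6% of member windows and 13.5% of the others. AAACACA, a motif known from H1 promoters, occurred in 5 of 6 H1 windows and in 7.17% of the other windows. Each of the 12 pairs of members that diverged from starts under 500 bases apart joined an H2A with an H2B gene, with 167 to 305 bases between them.

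A few members held most of the histone reads. The 68 genes had 51685 reads over the 9 libraries, of which the 5 with the most reads held 67% and the top 10 held 80.1%. Levels between genes are compared as RPM per kb of row span. On that scale Hist1h1c, a linker histone of the H1.2 type, led with 12 ± 0.73 in del/del and 10.5 ± 1.97 in fl/fl libraries (SD, n = 4 and 5). Hist1h4i, an H4 gene, followed with 10.3 ± 1.22 in del/del and 10.9 ± 1.75 in fl/fl libraries, so that the order of this pair was not the same in the genotypes and their difference lay within the spread. Hist3h2a had 3.49 ± 0.45 in del/del and 3.57 ± 0.45 in fl/fl libraries. Hist3h2ba, the H2B gene beside it, had 2.58 ± 0.42 and 2.23 ± 0.82 in the same order of groups.

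Within each type the leading genes were as follows, as RPM per kb over all 9 libraries (mean ± SD), a mean over both kinds of library name described below. H1 was led by Hist1h1c (11.2 ± 1.66), ahead of Hist1h1e (0.651 ± 0.285) and Hist1h1d (0.393 ± 0.132). H2A was led by Hist3h2a (3.54 ± 0.42), ahead of Hist2h2aa1 (1.20 ± 1.02) and Hist2h2aa2 (1.17 ± 0.90), which did not differ beyond their spread. H2B was led by Hist3h2ba (2.39 ± 0.66), Hist1h2bg (1.92 ± 1.10) and Hist1h2bc (1.09 ± 0.18). H3 was led by Hist2h3c1 (1.51 ± 0.35), Hist2h3c2 (0.736 ± 0.311) and Hist1h3g (0.612 ± 0.118), and H4 by Hist1h4i (10.6 ± 1.48), Hist1h4k (1.14 ± 0.26) and Hist1h4n (0.587 ± 0.472). In the 6 libraries whose names carry a prefix RNA-, Hist1h2bg (2.55 ± 0.68) came before Hist3h2ba (2.24 ± 0.60) among H2B genes, within the spread. The leaders of the other types stayed first there. In the 3 libraries whose names lack the prefix, each leader over all 9 libraries stayed first, but the places after it changed. There Hist2h2aa1 averaged 0.0914 and lay below Hist1h2ae (0.402), Hist1h2bg (0.652) below Hist1h2bc (0.978), Hist2h3c2 (0.351) below Hist1h3g (0.709) and Hist1h4n (0.0467) below Hist1h4h (0.379). At the low end, Hist1h1t, the testis linker histone, had 26 reads and Hist4h4 had 19 reads over all libraries. The row of Hist1h2be spans 37383 bases and that of Hist1h2bc 8290, which lowers their values per kb. Hist1h2bc, with 1156 exon bases, had 7374 reads over all libraries, against 1305 for Hist3h2ba. The order of the H2B genes therefore depends on the use of row spans.

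**Figure D1:**
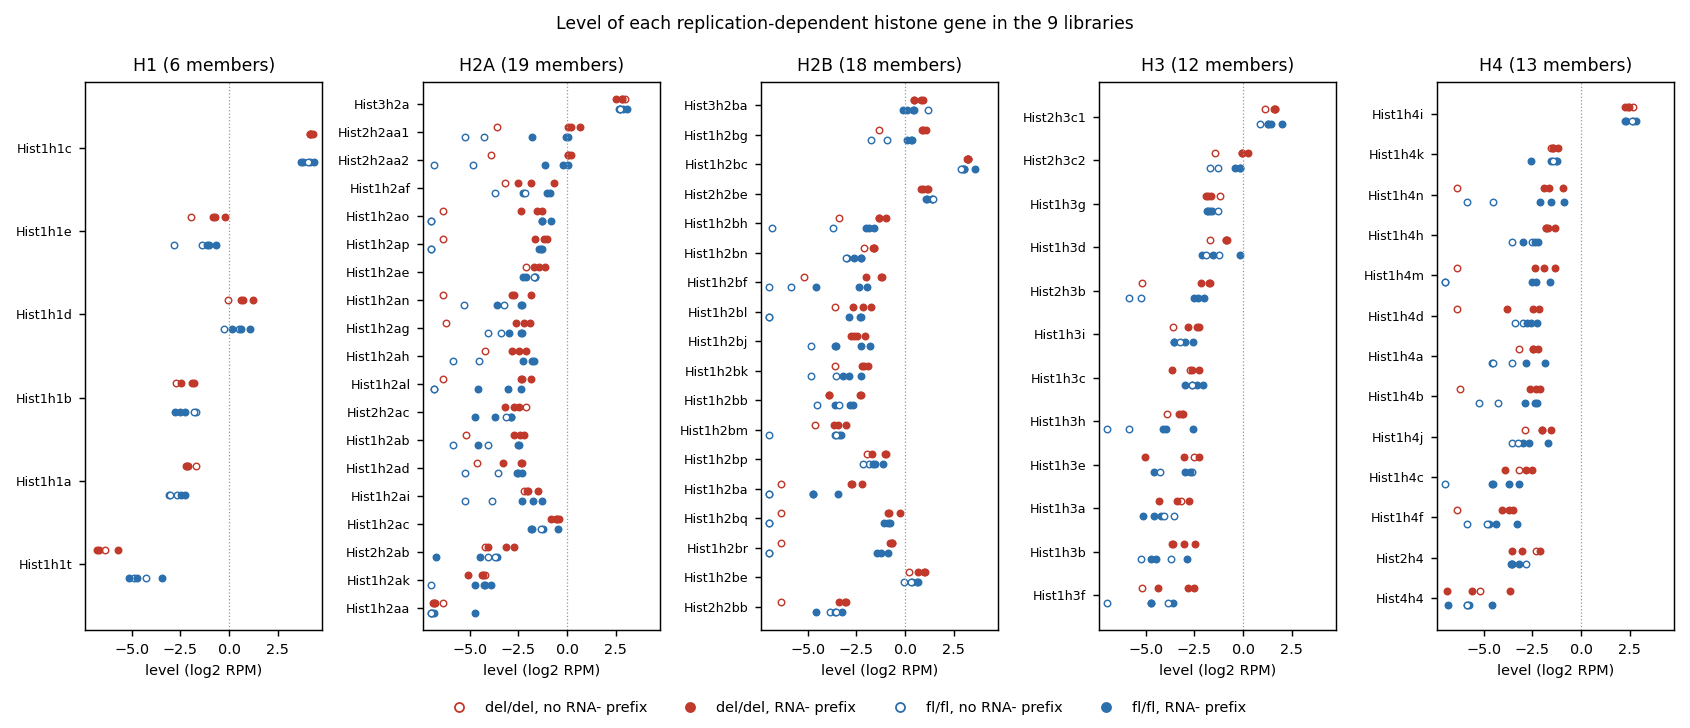
Level of each member as log2 RPM (x axis) in the 9 libraries, 1 panel per histone type, with genes ordered from top to bottom by mean RPM per kb of row span. Red points are del/del and blue points fl/fl libraries, and open points are libraries whose names lack the RNA- prefix; the dotted line marks log2 RPM of 0, and a gene with 0 reads sits at the library's value for 0.9 reads. Open points lie apart to the left for genes such as Hist1h2bq and Hist1h2ao and among the filled ones for Hist1h1c and Hist1h4i.

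Libraries held 24.1 M to 116.6 M reads (M is 1e+06), with 12.9 M to 44.9 M in listed rows, and female fl/fl 2 was the shallowest. The 3 libraries whose names lack the RNA- prefix are female del/del 1, female fl/fl 1 and male fl/fl 7; the labels do not say what the prefix stands for. All 14 neural stem cell markers examined passed the filter and 0 were called with the deletion. The 5 fibroblast markers (Col1a1, Col1a2, Col3a1, Dcn and Lum) and Mog, Sox10, Aif1, Ptprc, Cldn5, Pecam1, Cdh5 and Slc17a7 did not pass it. The other measured markers did: 6 of 7 for neurons, 4 of 6 for oligodendrocytes, 3 of 5 for microglia and leukocytes and 1 of 4 for endothelium. The markers that failed therefore do not show these cell types to be absent. Of 6 astrocyte markers 3 rose in del/del libraries (Gfap, log2 fold change 2.07, adjusted p = 0.0188; Aqp4, 1.66; Slc1a2, 0.66, limma). The summed astrocyte markers were 123 to 152 RPM in del/del and 82.1 to 112 RPM in fl/fl libraries, and their part in the histone values was not tested.

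Smchd1 deletion was compared over both sexes, as the series set deleted against control lines. None of the 12 histone genes that passed the filter was called: 0 were higher and 0 lower in del/del libraries at an adjusted p under 0.05 (limma), 0 had an unadjusted p under 0.05, and limma's voom on the recovered reads called 0. Over all rows, 1.45% (203) were higher and 0.0997% (14) lower, so 0 of 12 lies near the background. Without male del/del 5 the higher rows were 2, and without any other 1 library 50 to 243. With the line as a replicate block 529 rows were higher and 32 lower, none of them a member. The median log2 fold change of the 12 was 0.21, against -0.00 over all rows tested. It was 0.08 without male del/del 5, 0.12 without female fl/fl 3, 0.14 without male fl/fl 5, 0.15 with the block and 0.05 by quantile normalization. In these bulk cultures the number of cells in S phase and the histone mRNA per cell cannot be told apart.

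Among the linker histones, Hist1h1c had log2 RPM of 4.23, 4.17 and 4.15 in female del/del 1, 2 and 3 and 4.34 in male del/del 5, against 4.15, 4.38 and 3.72 in female fl/fl 1, 2 and 3 and 3.78 and 4.04 in male fl/fl 5 and 7. In RPM the groups overlapped, with female fl/fl 2 the highest of all, and the log2 fold change was 0.20 (SE 0.14, adjusted p = 0.891, limma). Female fl/fl 2 had 53.3% of its reads in listed rows, against 34.8% to 44.4% in the other libraries. The part of this share in its high level was not tested. Hist1h1d, the H1.3 type, had a log2 fold change of 0.21 (SE 0.34).

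Of the H2A genes, Hist3h2a had 2.98, 2.83, 2.52 and 2.82 log2 RPM in female del/del 1, 2 and 3 and male del/del 5, against 2.74, 3.09, 2.68, 2.89 and 2.70 in female fl/fl 1, 2 and 3 and male fl/fl 5 and 7. These ranges overlapped almost wholly, with a log2 fold change of -0.03 (SE 0.13). The identical pair on chromosome 3 gave the largest estimates and the largest errors of the 12. Hist2h2aa2 (chr3:96239785-96240323) had -3.89, 0.04, 0.03 and 0.21 log2 RPM in female del/del 1, 2 and 3 and male del/del 5, against -6.87, -1.13, 0.05, -0.22 and -4.85 in female fl/fl 1, 2 and 3 and male fl/fl 5 and 7. The low values were those of the 3 libraries without the RNA- prefix, in both genotypes, and the log2 fold change was 1.80 (SE 1.62, adjusted p = 0.997, limma). In the 6 libraries with the prefix alone it was 0.53. Hist2h2aa1 had a log2 fold change of 1.62 (SE 1.38), and 0.93 in the 6 libraries.

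Of the H2B genes, Hist2h2be, known as a polyadenylated member, had the smallest adjusted p of the 12. Its log2 RPM was 1.20, 0.80, 1.11 and 0.94 in female del/del 1, 2 and 3 and male del/del 5, against 1.10, 1.41, 1.14, 1.41 and 1.42 in female fl/fl 1, 2 and 3 and male fl/fl 5 and 7. Female del/del 1 lay above 2 fl/fl libraries, and the log2 fold change was -0.27 (SE 0.16, adjusted p = 0.770, limma). Hist1h2bg had 0.74 (SE 0.64), Hist1h2be 0.36 (SE 0.24), Hist3h2ba 0.30 (SE 0.28) and Hist1h2bc 0.11 (SE 0.15) as log2 fold changes. Hist2h3c1 (H3) had 0.09 (SE 0.22) and Hist1h4i (H4) -0.09 (SE 0.15).

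**Figure D2:**
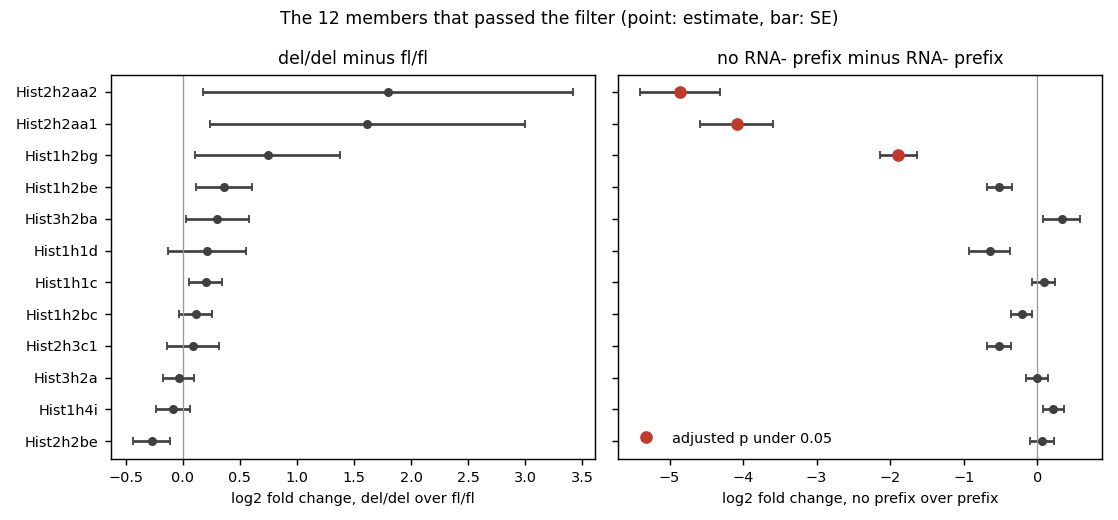
Log2 fold changes (points) with their SE (bars) from limma for the 12 members that passed the filter, del/del over fl/fl on the left and libraries without over those with the RNA- prefix on the right. Red marks an adjusted p under 0.05: none on the left, and Hist2h2aa2, Hist2h2aa1 and Hist1h2bg on the right.

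Without the filter, 0 of the 67 members with a read were called in either direction, where 1.19% of 22321 rows were higher and 0.0448% lower; 2 members were higher and 1 lower at an unadjusted p under 0.05. Most point estimates were above 0: 59 of 67, or 88.1%, against 51.4% of all rows, with a median of 0.49 against 0.01. With the line as a block it was 50 of 67 (74.6%, against 51.8% of all rows), with a median of 0.32 against 0.01. In the 6 libraries with the prefix alone, 52 of 67 were above 0 (77.6%, against 43.1% of all rows), with a median of 0.36 against -0.06. In females alone, 44 of 67 were above 0 (65.7%, against 47.5% of all rows), with a median of 0.25 against -0.01. In males the median was 1.12 against 0.05, and it rests on 1 del/del library. By type, over both sexes, 5 of 6 H1, 16 of 18 H2A, 16 of 18 H2B, 11 of 12 H3 and 11 of 13 H4 genes had an estimate above 0. The members share libraries, and many share sequence, so they are not independent of each other.

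The summed level of all 68 genes was 57.6, 69.4 and 64.3 RPM in female del/del 1, 2 and 3 and 74.1 RPM in male del/del 5. In fl/fl libraries it was 53.0, 72.7 and 57.5 RPM in females 1, 2 and 3 and 58.3 and 50.7 RPM in males 5 and 7. The means were 66.4 ± 7.10 RPM in del/del and 58.4 ± 8.55 RPM in fl/fl libraries (SD, n = 4 and 5), and the groups overlapped. By type, the del/del and fl/fl means were 21.3 ± 1.77 and 18.6 ± 3.41 RPM for H1, and 12.1 ± 2.05 and 10.7 ± 2.48 RPM for H2A. They were 19.6 ± 2.62 and 16.8 ± 3.03 RPM for H2B, 5.61 ± 1.13 and 4.83 ± 1.29 RPM for H3, and 7.75 ± 0.74 and 7.46 ± 0.82 RPM for H4. By cluster, Hist1 held 49.5 ± 5.45 RPM in del/del and 42.7 ± 6.84 RPM in fl/fl libraries, Hist2 8.27 ± 1.86 and 7.21 ± 1.70 RPM, and Hist3 8.56 ± 0.98 and 8.50 ± 0.72 RPM. Within the 4 lines that gave both genotypes, the H2B sum was 15.7, 21.6, 20.3 and 20.8 RPM in the del/del libraries of lines 1, 2, 3 and 5, against 13.4, 21.1, 17.5 and 17.5 RPM in their fl/fl partners. In RPM it was thus higher in del/del in 4 of 4 lines, by as little as 0.40 RPM in line 2, and so was the Hist2 sum. The share of reads in listed rows differed within lines: 44.4% in del/del and 36.9% in fl/fl of line 1, and 37.7% and 53.3% in line 2. Per read in listed rows, both sums of line 1 were lower in del/del. Its H2B genes had 1164 of 32.9 M such reads in del/del and 1563 of 43.1 M in fl/fl, and its Hist2 genes 406 and 628. In RPM, the sum of all members and those of H1 and H2A were higher in del/del in 3 of the 4 lines, and those of H3 and H4 in 2 of the 4.

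All del/del values lay above all fl/fl values in 3 of the 67 members with a read (4.48%, against 4.85% of all rows with a read), and below them in 1 (1.49%, against 0.744%). The 3 were Hist1h2bn, Hist1h4h and Hist1h1a, all below the filter; of the 12 that passed it, 0 lay above and 0 below (5.53% and 0.99% of filtered rows). Hist1h4h had 21, 30 and 30 reads in female del/del 1, 2 and 3 and 40 in male del/del 5, against 20, 3 and 21 in female fl/fl 1, 2 and 3 and 23 and 10 in male fl/fl 5 and 7. Its log2 fold change was 1.06 (SE 0.40, adjusted p = 0.399, limma without the filter). The 1 that lay below was Hist1h1t, with 3 reads in all del/del libraries together and 23 in all fl/fl libraries; female fl/fl 2 had 0, at a higher entered value because that library is shallow.

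In females alone 0 of the 12 members were higher and 0 lower (limma; 0.0142% and 0.0% of all rows), and 0 had an unadjusted p under 0.05. Without the filter 0 of 67 were called (0.0134% of rows higher and 0.0% lower). When the line was entered as a replicate block, 0 members were called, where 262 rows were higher and 13 lower. The median log2 fold change of the 12 was 0.08, and its sign turned with 1 library: it was -0.10 without female fl/fl 1, with 3 of 12 above 0, -0.05 without female fl/fl 3, -0.00 without female del/del 2 and 0.20 without female fl/fl 2. In males, where 1 del/del library stood against 2 fl/fl libraries and was taken to have the spread of the other groups, 0 of the 12 were called (0.0% of all rows; 47 rows higher and 2 lower with the line as a block, 0 of them members) and the median was 0.48. A difference of the deletion effect between the sexes was called for none of the 12 (limma, 0 called, 0.0% of all rows, 0 at an unadjusted p under 0.05). Hist1h1d had log2 fold changes of -0.16 (SE 0.37) in females and 1.07 (SE 0.56) in males, or 0.63 in males without male fl/fl 7, which lacks the prefix.

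The genes that make and process histone mRNA were examined beside them. Of 29 such genes, all passing the filter, 0 rose and 0 fell in del/del libraries (limma), and their median log2 fold change was -0.07, against -0.00 over all rows. The lowest p was that of Lsm11, a subunit of the U7 particle that cuts histone mRNA after the stem-loop, with a log2 fold change of -0.32 (SE 0.09, adjusted p = 0.188). Eri2, an exonuclease of the Eri1 family, had -0.31, Casp8ap2 (FLASH), a partner of NPAT and Lsm11, -0.22 and Pou2f1 (OCT1), which binds H2B promoters, 0.16. Slbp itself had -0.17 (SE 0.19) and Npat 0.03 (SE 0.13); both were named after their values were seen.

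Of 11 replication-independent histone genes tested, 0 rose and 0 fell, with a median of -0.12. H1f0, the linker histone of non-dividing cells, had -0.37, H2afy2 (macroH2A2) -0.16, Cenpa, the centromeric H3, -0.19 and H2afv (an H2A.Z gene) -0.19. Of 18 histone chaperones 0 were called, with a median of -0.13; Asf1b had -0.28, Chaf1b, a subunit of CAF-1, -0.24, Cabin1 0.21 and Hira -0.15. Of 32 S-phase genes 0 were called, with a median of -0.13 and 2 above 0, where 48.9% of all rows were above 0. Gins1 had -0.29, Pola1 -0.30, Cdc6 -0.17 and Tyms -0.28. Of 18 G2 and mitosis genes 0 were called, with a median of -0.14 and 1 above 0, against the same share of all rows. Ttk had -0.25, Bub1 -0.26, Aurka -0.17 and Tpx2 -0.18. All these values are log2 fold changes, and none of the genes named here had an adjusted p under 0.05 by limma.

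The second comparison set the 3 libraries without the RNA- prefix against the 6 with it, in a fit with genotype and sex as covariates. Without the filter, 19 of 31 near-identical histone copies were called lower in the libraries without the prefix and 12 were not; 3 of these, Hist1h3g, Hist1h3e and Hist1h4k, had a higher mean log2 RPM there. The leading members Hist1h1c, Hist1h4i and Hist3h2a were not called. The 3 libraries without the prefix come from 2 lines, both parts of line 1 and line 7, and the 6 with it from 3 lines, so the fit takes parts of 1 line as independent and its p-values may be too small. Of the 12 members that passed the filter 3 were lower and 0 higher (limma), or 25% lower, where 3.79% of all rows (532) were lower and 0.0142% (2) higher. The 3 were Hist2h2aa2, Hist2h2aa1 and Hist1h2bg, which reached log2 RPM of 0 only in libraries with the prefix. They passed the filter only through the group where they are high, so the 25% is no support for a difference. The count of all rows called higher rests on 1 library: without female fl/fl 2, the shallowest, 3084 rows (22%) were higher and 762 (5.43%) lower. Without any other 1 library, 440 to 552 rows (3.13% to 3.93%) were lower. Without the filter 22 of 67 were lower, where 4.62% of rows were, and 0 higher, where 0.0224% were. The meaning of the prefix, the read length, the counting of reads that map to several places and the sequencing run are not stated in the labels.

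Hist2h2aa2 had 5, 1 and 4 reads in female del/del 1, female fl/fl 1 and male fl/fl 7, against 108, 101 and 118 in female del/del 2 and 3 and male del/del 5 and 11, 114 and 90 in female fl/fl 2 and 3 and male fl/fl 5. No library without the prefix reached the lowest of the others per 1e+06 reads. The log2 difference was -4.86 (SE 0.54, adjusted p = 0.000341, limma). Its twin Hist2h2aa1 had 6, 6 and 3 reads in the same 3 libraries, against 169, 104, 119, 7, 113 and 100 in the 6 others in that order, a log2 difference of -4.09 (SE 0.50, adjusted p = 0.000621). Hist1h2bg, an H2B gene with 49.7% of its words elsewhere, just under the limit for a copy, had 29, 61 and 34 reads against 224, 185, 187, 26, 142 and 132, a log2 difference of -1.89 (SE 0.25, adjusted p = 0.00128). These 3 were lower in all 3 libraries without the prefix than in any with it.

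The copies of the identical pairs were the extreme. Hist1h2bq had 0 reads in each of the 3 libraries without the prefix, against 88, 56 and 56 in female del/del 2 and 3 and male del/del 5 and 13, 51 and 62 in female fl/fl 2 and 3 and male fl/fl 5. With a floor of 3 reads over the 306 M reads of the 3 libraries, it was at least 61.1-fold lower per 1e+06 reads. By the same floor its twin Hist1h2br was at least 53.6-fold lower, Hist1h2ap at least 41.4-fold, Hist1h2ao at least 39.5-fold and Hist1h4m at least 25.3-fold. These 5 had 0 reads in all libraries without the prefix and reads in all 6 with it. The twin of Hist1h4m, Hist1h4n, had 7 reads without and 187 with the prefix, a 15-fold lower level. Hist1h2bq and Hist1h2ao are neighbours that start 265 bases apart, and so are Hist1h2ap and Hist1h2br at 167 bases, so that 2 divergent H2A and H2B pairs with like sequence were at 0 together.

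Over the 31 near-identical copies the median difference in mean log2 RPM was -2.22, and 19 (61.3%) were called lower without the filter. Over the 36 other members with a read it was -0.52, and 3 (8.33%) were called: Hist1h2bg, Hist1h2bh and Hist1h2ba. Across the 67 members the difference and the share of words elsewhere had a Spearman rho of -0.63 and a Pearson r of -0.65, as a description over genes that share libraries and sequence. The same order held outside the histone genes, here by the limma estimate with genotype and sex as covariates. Among other rows with at least 90% of words elsewhere the median was -1.34 and 42.2% of 249 were called lower, and at 50% to under 90% it was -0.89 and 41.1% of 479. Under 50% it was 0.05 and 2.62% of 18903. By the same estimate, members with at least 90% had a median of -4.47 (n = 8), those at 50% to under 90% -1.95 (n = 23) and those under 50% -0.45 (n = 36).

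Some members lay off this order. Hist1h4k, with 71.5% of its words elsewhere, had 25, 47 and 42 reads in female del/del 1, female fl/fl 1 and male fl/fl 7, against 39, 36, 45, 4, 38 and 44 in the 6 others. By pooled reads it was 1.02-fold lower without the prefix, while its mean log2 RPM was 0.13 higher there. In the other direction, Hist1h2bh, with 18.8% of its words elsewhere, had 17 reads without and 197 with the prefix, a 6.51-fold lower level. Hist1h2ba, with 38.2%, had 0 and 66 reads, at least 12.4-fold lower. Members with no shared words had a median limma estimate of 0.01 (n = 5).

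**Figure D3:**
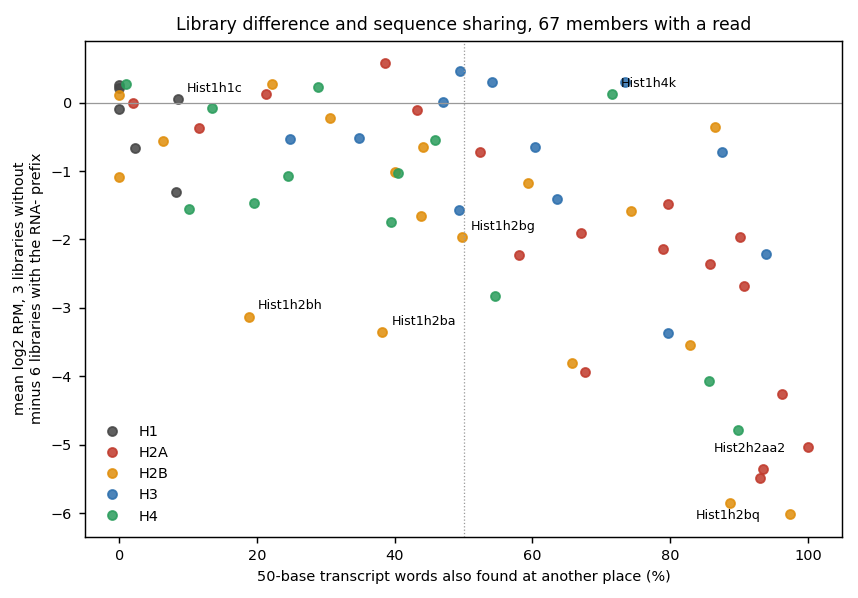
Difference in mean log2 RPM between the 3 libraries without and the 6 with the RNA- prefix (y axis) against the share of a gene's 50-base transcript words found at another place (x axis, %), for 67 members coloured by histone type. The dotted line marks the limit of 50% for a near-identical copy; the points fall from about 0 at the left to Hist1h2bq and other copies near the bottom right, with Hist1h4k, Hist1h2bh and Hist1h2ba off that trend.

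Summed over the 31 near-identical copies, the level was 2.47 ± 0.37 RPM in the 3 libraries without the prefix and 9.90 ± 1.63 RPM in the 6 with it (SD), a 4.01-fold lower sum. The other 37 members summed to 51.3 ± 3.14 RPM without and 56.2 ± 6.90 RPM with the prefix, within the spread. Among these, the 11 of H2B summed to 14.2 ± 1.08 RPM without and 17.6 ± 1.58 RPM with the prefix, with no overlap (13 to 15.1 against 15.6 to 19.4 RPM), and those of H3 to 2.75 ± 0.34 and 3.91 ± 0.71 RPM, 1.42-fold lower without it. Copies made up 4.93%, 4.66% and 4.14% of member RPM in female del/del 1, female fl/fl 1 and male fl/fl 7, and 10.5% to 16.9% in the 6 others. By type the fold by which sums were lower without the prefix was 1.03 for H1, which has no near-identical copy, 1.48 for H2A, 1.36 for H2B, 1.54 for H3 and 1.05 for H4. The Hist2 cluster was 1.64-fold lower and Hist1 1.23-fold, while Hist3 had 8.70 ± 0.60 RPM without and 8.44 ± 0.90 RPM with the prefix.

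Genotype and prefix are partly mixed: 1 of 4 del/del and 2 of 5 fl/fl libraries lack the prefix. The copies' sums were 2.84 RPM in female del/del 1, and 11.5, 9.24 and 12 RPM in female del/del 2 and 3 and male del/del 5. In fl/fl libraries they were 2.47 and 2.10 RPM in female 1 and male 7, and 7.63, 9.72 and 9.25 RPM in female 2 and 3 and male 5. Within the 6 libraries with the prefix the genotypes thus still overlapped, and within the 3 without it 1 del/del library lay above both fl/fl libraries. The median unfiltered del/del over fl/fl estimate was 0.80 for the copies and 0.39 for the other members.

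**Figure D4:**
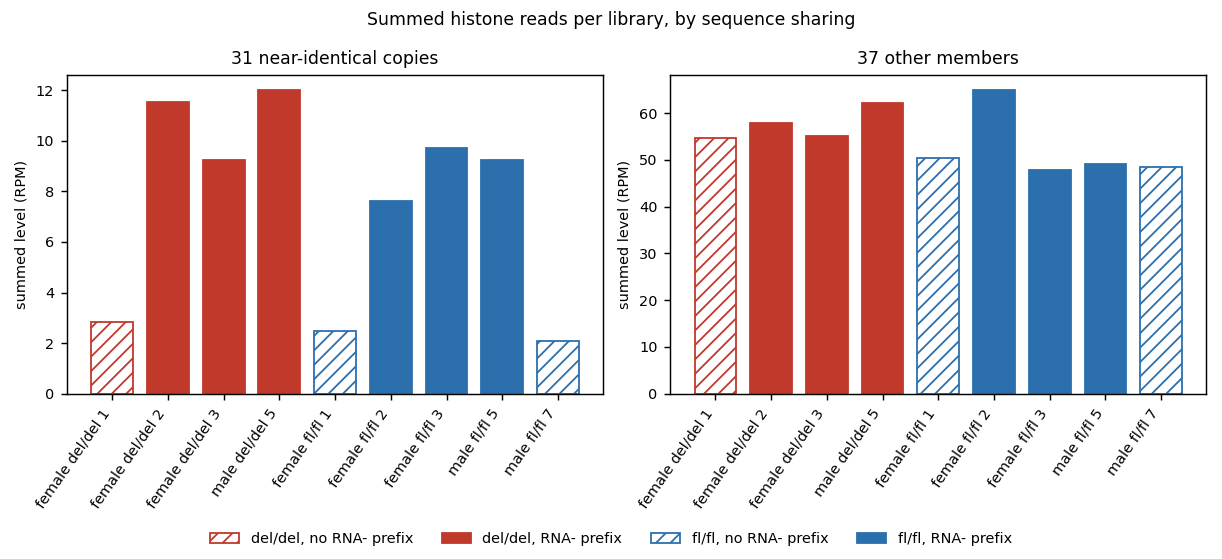
Summed level in RPM (y axis, from 0) of the 31 near-identical copies (left) and the 37 other members (right) in each library, del/del in red and fl/fl in blue, with hatched open bars for libraries without the RNA- prefix. The copies stand at 2.10 to 2.84 RPM in the 3 hatched libraries and at 7.63 to 12 RPM in the rest, and the other members at 47.8 to 65.0 RPM with no such gap.

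All values without the prefix lay below all values with it in 26 of 67 members (38.8%, against 6.43% of all rows with a read), and above them in 0 (3.07%). Of the 26, Hist1h4f and Hist1h2ba had 0 reads in a library with the prefix, the shallow female fl/fl 2, and 24 remain without them. They included 18 of the 31 near-identical copies and 8 of the 36 other members with a read. Among the 12 that passed the filter 0 lay above (4.39% of filtered rows) and 5 below (5.56%): Hist2h2aa2, Hist2h2aa1, Hist2h3c1, Hist1h2bg and Hist1h2be. Of these, Hist2h2aa2, Hist2h2aa1 and Hist1h2bg passed the filter only through libraries with the prefix. Of the lists above, 0 genes of histone mRNA processing, replication-independent histones, chaperones, S phase or mitosis were called in this comparison (limma).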

How the data were processed

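RNA was sequenced from 9 neural stem cell libraries, grouped by the sample titles. The authors deposited log2 RPM per gene (log2 of reads per 1e+06 reads of the library), per the file headers and the values. TopHat2 2.0.12, edgeR 3.8.2, bcl2fastq and build mm10 stand in the submitters' processing notes. The counter, its annotation, and its strand and multiple-mapping settings were not given in the sources. In every library nearly all values, at least 99.9961%, were whole reads times 1 constant (tolerance 0.05 reads), with 0 reads entered as 0.9. Depth was 24.1 M to 116.6 M reads, of which 34.8% to 53.3% fell in listed rows, and floors cover counting error only.

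Rows with log2 RPM of 0 or more in 3 or more libraries entered limma 3.58.1 as deposited log2 values (R 4.3.3, two-sided, lmFit and eBayes with a trend). Benjamini-Hochberg adjustment ran over all rows of a fit, with a threshold of 0.05. The deletion effect was fitted with sex as a covariate, the effects per sex and their difference in a model of 4 group means, and the prefix with genotype and sex. Lines 1, 2, 3 and 5 each gave both a del/del and an fl/fl library, per the labels, and these main fits did not pair them.

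Member identity, exons and 50-base words came from GENCODE vM21 (GRCm38); all 68 members matched by symbol and place. The steps were tested on simulated data. The members, gene lists and comparisons were chosen with earlier results of these data known. The genes named are Smchd1, the members called, the 3 of each type with the highest level per kb and the 4 genes of each list with the smallest p; members that illustrate copies or that stood apart by genotype were picked with their values known. Line numbers pair the libraries, since each line was divided per the labels. The deviations of same-line female libraries correlated with r of 0.868, 0.582 and 0.758. Between lines, r was 0.729 for female del/del 2 with fl/fl 3 and 0.494 for female del/del 3 with fl/fl 2. It was -0.841 to -0.572 for pairs of line 1 with line 2 or 3. Line 1 alone of these lacks the prefix, so these values cannot tell a shared line from a shared prefix.

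Alternatives were other filters, log2(RPM + 1), voom on the recovered reads, 3 other scalings, other covariates, the line as a block, the 6 libraries with the prefix alone, word lengths of 30 and 75 bases and leaving out each library.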

Additional observations from a re-analysis of the deposited data

Results flagged for a closer look

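Of 40 groups of values examined, 7 had 1 library farther from the rest of its group than Dixon's 95% limit allows; chance gives about 1 in 20. In 4 of them female del/del 1, which lacks the RNA- prefix, was the lowest of the 4 del/del libraries. Its log2 RPM was -3.89 for Hist2h2aa2, -3.62 for Hist2h2aa1, 1.11 for Hist2h3c1 and -1.35 for Hist1h2bg. The lowest fl/fl libraries for these genes were also those without the prefix. Male del/del 5 was the highest del/del library in the summed level of the H1 genes, at 24.0 RPM. Female fl/fl 2, the shallowest library, was the highest fl/fl library for Hist1h2bc, at a log2 RPM of 3.62, and for the sum of the 37 members that are not near-identical copies, at 65.0 RPM. It also had the largest share of reads in listed rows, 53.3%. Their causes were not tested.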

How the results depend on the processing

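No member was called in the deletion comparison over both sexes, in females, or between the sexes under any of the 25, 21 and 20 settings. The fit with the line as a replicate block gave 0 calls among the 12 members in each comparison, while over all rows it called 529 higher and 32 lower over both sexes (203 and 14 without it) and 262 and 13 in females (2 and 0 without it). For the prefix, 3 members were lower; 22 were without the filter, 17 without the filter on log2(RPM + 1), 18 without the filter by voom, and 0 of 4 with the stricter filter, which removed those 3. Leaving out 1 library each, 3 to 4 members were lower and 0 to 1 higher. The 1 higher came without female fl/fl 2, where Hist1h4i had a log2 difference of 0.33 and Hist1h2be -0.56; over all 14044 rows, 3084 were then higher and 762 lower. Near-identical copies numbered 40 with 30-base and 27 with 75-base words.

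Small estimates changed sign, none of them called. For the deletion, Hist2h3c1 was -0.0798 by quantile normalization, -0.0011 with the replicate block (with or without the filter) and -0.036 with the block and median centring. Hist1h1d was -0.033 by quantile normalization and -0.00017 with the block and centring, and Hist1h2bc -0.0028 in the 6 libraries with the prefix, with or without the filter. For the prefix, Hist2h2be was -0.0028 by median centring, and Hist3h2a was 0.0299 by quantile normalization, 0.0203 by voom, 0.019 by voom without the filter and 0.0018 without covariates. Causes were not tested. Leaving out 1 library each gave ranges of -0.11 to 0.26 for Hist2h3c1, -0.096 to 0.052 for Hist3h2a and -0.16 to 0.44 for Hist1h1d in the deletion effect, and of -0.082 to 0.17 for Hist2h2be, -0.18 to 0.085 for Hist3h2a and -0.00498 to 0.21 for Hist1h1c in the prefix difference. The count of all rows called moved with 1 library: without male del/del 5, 2 rows were higher in del/del. Of the 68 members 56 lay under the filter, and female fl/fl 2 was the shallowest library.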
